A study of Mus musculus with 9 samples.

Results

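The genes described here encode subunits of the serine/threonine protein phosphatases, enzymes that take phosphate off serine and threonine. They are the rows of the deposited sample table whose symbol begins with Ppp and a digit, 10 of the 2889 genes listed there. The same rule finds 77 protein-coding genes in RefSeq for mouse, 11 of them catalytic subunits. All 10 listed genes encode regulatory subunits or inhibitors, 7 of PP1, 2 of PP2A and 1 of PP4, and 0 are catalytic; the other genes of the family are not analysed here. All 10 passed the filter on low values, a mean over the 9 samples of 1 normalized count or more.

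The cells were T cells that carry CD3, taken by negative selection from spleens of 3 C57BL/6 mice whose genotype is labelled WT. Each mouse gave 3 samples, 1 per medium: medium conditioned by adipocytes, medium conditioned by stromal cells, and RPMI that no cells had conditioned. All 9 samples were kept in their medium for 4 h, so the unconditioned cells had also spent that time in culture. The age of the mice, and where the adipocytes and stromal cells came from, the sources used here do not give.

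A PP1, PP2A or PP4 catalytic subunit does little by itself: a regulatory subunit binds it, places it in the cell and chooses or blocks its substrates. PPP1R15A, also called GADD34, and PPP1R15B, also called CReP, bring PP1 to the translation factor eIF2-alpha and so reverse the brake on protein synthesis that stress kinases set. PPP1R15A is the inducible one and is made in stressed cells, while PPP1R15B is made constitutively. PPP1R12C, PPP1R16A and PPP1R16B belong to the family of myosin phosphatase targeting subunits, PPP1R14C is an inhibitor of PP1, and PPP2R2A and PPP2R2D are B55 subunits of PP2A, known for dephosphorylating substrates of cyclin-dependent kinases.

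The genes were selected on measured values of these same samples: each gene of the sample table is in at least 1 of the authors' tables of genes changed beyond 1.5-fold in a conditioned medium. All 10 subunit genes are in the authors' deposited table for adipocyte medium, with 3220 genes, and 0 are in their table for stromal medium, with 602 genes. Of the 10, the one nearest to the limit of 0.05 in the authors' deposited table was Ppp2r2a, with a log2 fold change of 0.82 and an adjusted p of 0.00484; subunit genes outside the limit are not analysed here. The adipocyte values below are therefore a description with no test. The stromal comparison did not select these genes, but it shares the unconditioned samples with the one that did.

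Reads on the listed genes came to 6522742 to 13758643 per sample. Of 12 T cell markers the table holds Cd3e, Cd3g, Cd8a and Cd8b1, whose normalized counts summed to 32578 to 35237 in the adipocyte samples, 72070 to 73297 in the stromal samples and 86513 to 97969 in the unconditioned samples. The 4 of 8 B cell markers in the table summed to 459 to 509, 1421 to 2436 and 1906 to 2428 in adipocyte, stromal and unconditioned medium. The 5 of 10 myeloid markers summed to 475 to 821, 3271 to 8211 and 3234 to 6712, and the 3 of 7 neutrophil markers to 165 to 720, 1666 to 2903 and 1563 to 2333. None of the listed natural killer, adipocyte or stromal markers is among the genes analysed here. The sums of all 4 marker lists were thus lower in adipocyte medium, with no overlap with the unconditioned samples, on the authors' scaling of the libraries. On that scaling 63.4% of the 2868 genes that passed the filter also had all adipocyte samples below all unconditioned ones. The sums stand beside the subunit values below, and their part in those values was not tested. A sum can hide single genes. Of the 5 myeloid markers 4 were lower in adipocyte medium, while the log2 fold change of Cd14 was 0.34 (SE 0.39) there and 1.99 (SE 0.39) in stromal medium. The markers seen are those selected as changed, so the sums do not describe the absent ones.

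The promoter of Ppp1r15a is shown because this gene gained the most normalized counts of the 10 in adipocyte medium and because its promoter holds a full cyclic AMP response element, a site bound by CREB and ATF factors. These are the 250 bases before its start in RefSeq on GRCm38.p6, chr7:45526269-45526518 on the minus strand, with the element in capitals.
Ppp1r15a: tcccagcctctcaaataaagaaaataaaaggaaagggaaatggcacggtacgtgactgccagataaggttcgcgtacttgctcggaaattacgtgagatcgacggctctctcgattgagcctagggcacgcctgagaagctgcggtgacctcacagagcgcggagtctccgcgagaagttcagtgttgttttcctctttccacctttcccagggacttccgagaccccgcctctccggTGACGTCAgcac
The same letters stand in the promoters of Ppp1r12c and Ppp2r2d, at chr7:4501731-4501760 on the minus strand and chr7:138846327-138846356 on the plus strand, shown with their 30-base surroundings for comparison.
Ppp1r12c: ggtcggcgccgTGACGTCAatataccgagc
Ppp2r2d: gcggagggggaTGACGTCAtccggcggggc
The centre of the element lies 8 bases before the start in Ppp1r15a, 17 in Ppp2r2d and 65 in Ppp1r12c.

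RefSeq promoters were matched by symbol for 7 of the 10 genes, all but Ppp1r15b, Ppp1r16a and Ppp2r2a, and 4 motifs were searched on both strands of the 250 bases. TGACGTCA was in 3 of the 7, against 1.62% of 27025 promoters and 2.49% of the 2330 promoters of genes in the sample table. The AP-1 motif TGANTCA and the ATF4 composite motif TGATGNAA were in 0 of the 7, against 6.87% and 3.53% of all promoters, which says only that these letters are absent from these windows. The NFAT core GGAAA was in 5 of the 7, Ppp1r14c, Ppp1r15a, Ppp1r16b, Ppp1r21 and Ppp4r2, against 55.6% of all promoters. A match describes letters, not binding. The 3 genes with the cyclic AMP element were higher in adipocyte medium, as were 3 of the 4 without it, Ppp1r14c, Ppp1r16b and Ppp4r2; Ppp1r21 was lower.

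In adipocyte medium 8 of the 10 genes were higher than in unconditioned medium and 2 were lower, Ppp1r16a and Ppp1r21. In the limma fit over 2868 genes, 33.8% of genes were called higher and 63.4% lower at an adjusted p under 0.05. All 3 adipocyte samples lay above all unconditioned samples for the 8 genes and below them for the 2, as they did for 33.6% and 63.4% of tested genes. Nothing is read from these counts, because the comparison selected the genes. The median log2 fold change of the 10 genes was 0.91, beside -1.03 over all tested genes. Fold changes are differences of log2(normalized count + 1), a scale that understates changes of low genes, on the authors' scaling of the libraries. Rescaling by the median of ratios over the listed genes adds 0.93 to the log2 fold change of most genes in adipocyte medium and 0.36 in stromal medium. It kept the direction of all 10 genes in adipocyte medium. That rescaling takes most listed genes as unchanged, though every listed gene was selected as changed in a conditioned medium. It therefore shows only how far values move with the scale.

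**Figure D1:**
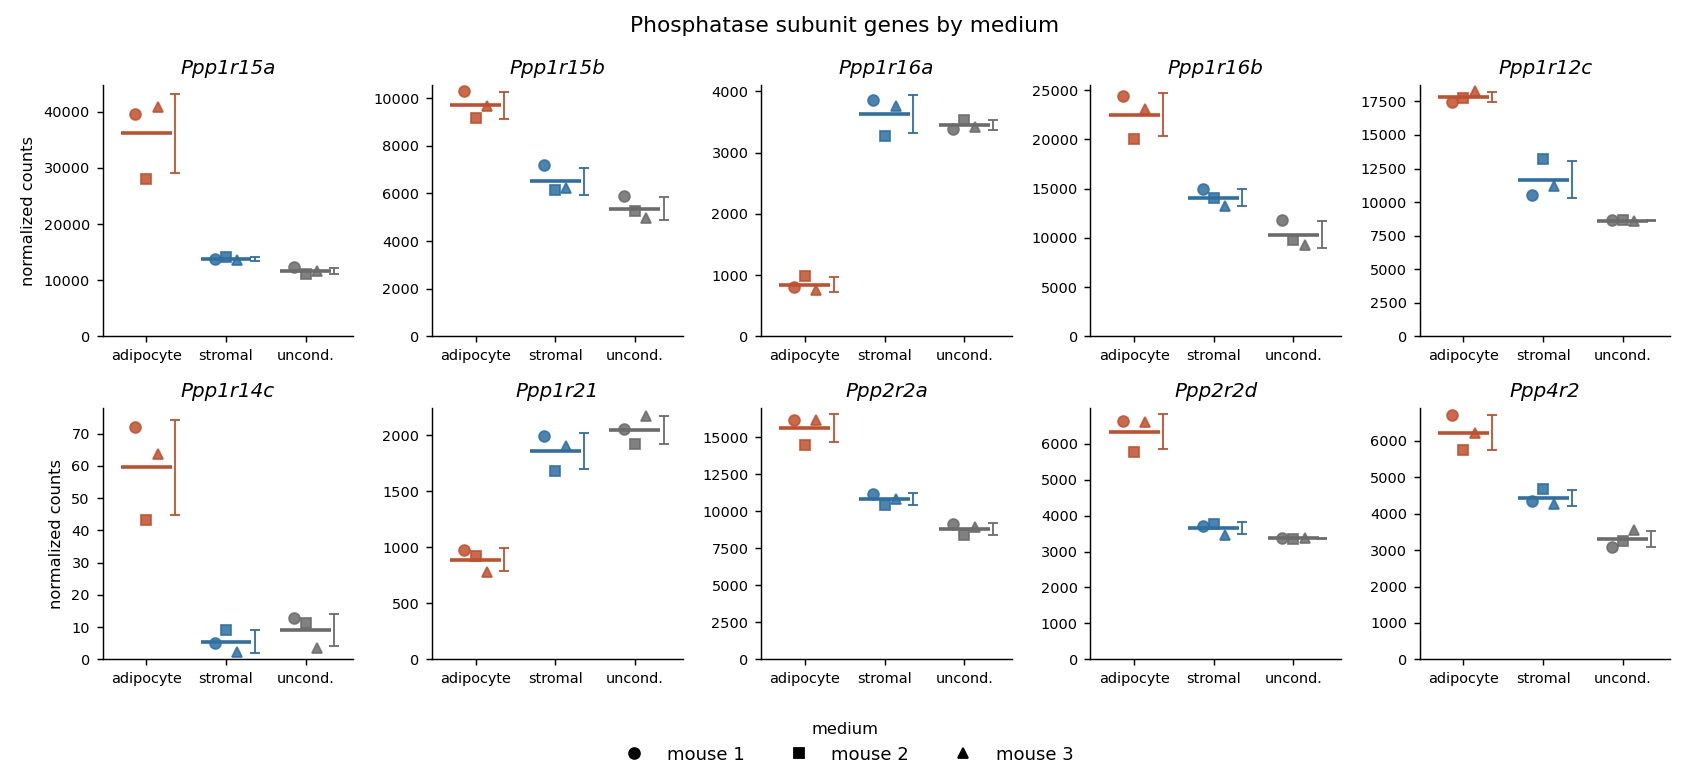
Normalized counts (vertical axis, from 0, own scale per gene) of the 10 subunit genes in adipocyte, stromal and unconditioned medium. Points are samples, with a shape per mouse, horizontal lines are means and bars are 1 SD of 3 samples; the adipocyte samples stand clear of the unconditioned ones in every panel, with Ppp1r16a and Ppp1r21 below and the other 8 above.

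Both genes of the eIF2-alpha phosphatase were higher in adipocyte medium, Ppp1r15a by more. Ppp1r15a (ENSMUSG00000040435) had 39589, 28070 and 40819 normalized counts in mice 1, 2 and 3 in adipocyte medium, 13700, 14164 and 13579 in stromal medium, and 12282, 11203 and 11674 in unconditioned medium. The adipocyte samples were the high ones, with mouse 2 lowest among them, and the stromal samples lay just above the unconditioned ones with no overlap. It averaged 36159 ± 7032 in adipocyte medium and 11720 ± 541 in unconditioned medium (SD, n = 3). Its log2 fold change stood at 1.61 (SE 0.12), and at 1.78 without the adipocyte sample of mouse 2. Stromal medium, at 13814 ± 309, differed by 0.24 (SE 0.12, 95% interval -0.03 to 0.51, limma adjusted p = 0.116). It passed when the adipocyte sample of mouse 2, which enters the shared estimate of spread, was left out (adjusted p = 0.0085), and after rescaling by the median of ratios (0.59, adjusted p = 0.00342).

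Ppp1r15b (ENSMUSG00000046062), the constitutive partner, had 10286, 9157 and 9683 normalized counts in adipocyte medium, 7176, 6141 and 6211 in stromal medium, and 5873, 5266 and 4954 in unconditioned medium. Its adipocyte samples were all above its stromal samples, and those all above its unconditioned samples. In adipocyte medium it was higher by 0.86 (SE 0.09) on the log2 scale. In stromal medium it rose by 0.28 (SE 0.09, limma adjusted p = 0.019), a call that ended on leaving out any of 3 single samples (stromal 1, unconditioned 2 or unconditioned 3; adjusted p = 0.0847, 0.0632 and 0.0917), or mouse 3 in all media. An antisense gene, Gm26616, overlaps 11.4% of its exon bases in GENCODE M21, and unstranded reads there cannot be assigned to either.

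The ratio of the 2 genes was high in adipocyte medium. Within each library Ppp1r15a stood at 3.85, 3.07 and 4.22 times Ppp1r15b in adipocyte medium, at 1.91, 2.31 and 2.19 times in stromal medium and at 2.09, 2.13 and 2.36 times in unconditioned medium. Such a ratio does not depend on how the libraries are scaled, though it depends on the unequal lengths of the transcripts. On the log2 scale it was 0.75 higher in adipocyte than in unconditioned medium. In stromal medium the difference was -0.04 (exact two-sided permutation test, p = 0.8; 3 samples against 3 cannot go below 0.1), and the stromal and unconditioned values overlapped.

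The myosin phosphatase targeting family split. Ppp1r16a (ENSMUSG00000033819), also called MYPT3, a membrane-tethered member of the family, had 807, 982 and 750 normalized counts in adipocyte medium, 3854, 3275 and 3767 in stromal medium, and 3391, 3537 and 3410 in unconditioned medium. The adipocyte samples were low, while stromal and unconditioned samples overlapped. It averaged 846 ± 121 in adipocyte medium against 3446 ± 79.3 in unconditioned medium (SD, n = 3). The log2 fold change was -2.03 (SE 0.10). In stromal medium the difference was 0.07 (SE 0.10, 95% interval -0.16 to 0.30, limma adjusted p = 0.574), and 0.43 (adjusted p = 0.00196) after rescaling by the median of ratios. In bulk samples such as these, fewer cells of a type and less RNA per cell cannot be told apart.

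Ppp1r16b (ENSMUSG00000037754), also called TIMAP and likewise membrane-tethered, went the other way. It had 24420, 20074 and 23027 normalized counts in adipocyte medium, 14994, 14042 and 13219 in stromal medium, and 11844, 9784 and 9250 in unconditioned medium. The 3 media did not overlap, with stromal samples in the middle. The log2 fold change was 1.13 (SE 0.11) in adipocyte medium, and in stromal medium the gene rose by 0.46 (SE 0.11, limma adjusted p = 0.00283).

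These relatives differed in direction in adipocyte medium, and their ratio differed more than either gene. Ppp1r16b stood at 30.3, 20.4 and 30.7 times Ppp1r16a within the adipocyte libraries, at 3.89, 4.29 and 3.51 times in the stromal libraries, and at 3.49, 2.77 and 2.71 times in the unconditioned libraries. The log2 ratio was 3.17 higher in adipocyte than in unconditioned medium. In stromal medium it was 0.39 higher, with every stromal library above every unconditioned one (exact two-sided permutation test, p = 0.1, the smallest that 3 samples against 3 allow).

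**Figure D2:**
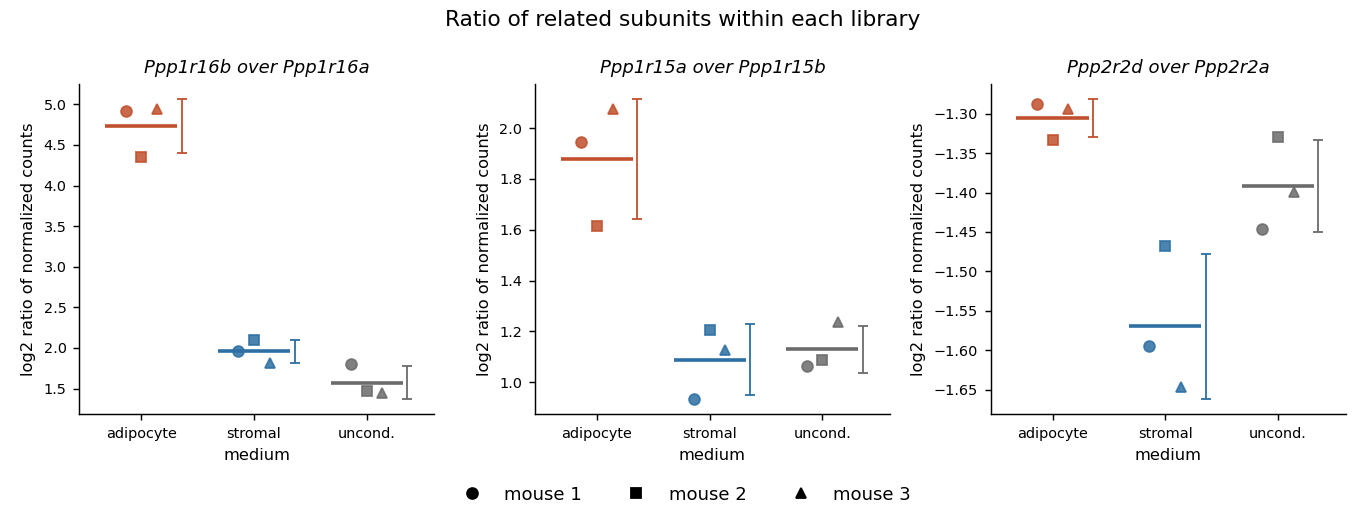
Log2 ratio of the normalized counts of related subunit genes within each library (vertical axis), by medium, with a shape per mouse, the mean as a line and 1 SD of 3 samples as a bar. Ppp1r16b over Ppp1r16a and Ppp1r15a over Ppp1r15b were highest in the adipocyte libraries, while the ratio of the B55 genes spanned only -1.65 to -1.29.

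Ppp1r12c (ENSMUSG00000019254), also called MBS85, the third member of the targeting family here, had 17478, 17720 and 18238 normalized counts in adipocyte medium, 10552, 13186 and 11216 in stromal medium, and 8641, 8662 and 8575 in unconditioned medium. The unconditioned samples were the tightest, and the media did not overlap. Its log2 fold change was 1.05 (SE 0.09) in adipocyte medium. In stromal medium it rose by 0.43 (SE 0.09, limma adjusted p = 0.00102).

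The remaining PP1 genes were an inhibitor and an endosomal protein. Ppp1r14c (ENSMUSG00000040653), also called KEPI, whose product inhibits PP1 when protein kinase C has phosphorylated it, was the least abundant, with 71.9, 43.2 and 63.5 normalized counts in adipocyte medium, 5.01, 9.23 and 2.39 in stromal medium, and 12.9, 11.3 and 3.55 in unconditioned medium. These were 50, 48 and 65 reads, 6, 14 and 2 reads, and 9, 13 and 4 reads, so the stromal value of mouse 3 was under a floor of 3 reads. The adipocyte samples were high, and stromal and unconditioned samples overlapped. The log2 fold change in adipocyte medium was 2.69 with a wide error (SE 0.55), and 2.12 to 3.11 when a mouse was left out. In stromal medium it was -0.63 (SE 0.55, 95% interval -1.83 to 0.57, limma adjusted p = 0.349), a difference this depth could not resolve. An antisense gene, Gm26752, overlaps 29.2% of its exon bases.

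Ppp1r21 (ENSMUSG00000034709), whose product sits on early endosomes, had 977, 920 and 779 normalized counts in adipocyte medium, 1997, 1679 and 1904 in stromal medium, and 2052, 1925 and 2174 in unconditioned medium. The adipocyte samples were low, and the stromal and unconditioned ranges overlapped. The log2 fold change in adipocyte medium was -1.21 (SE 0.11) on the authors' scale and -0.28 (SE 0.10) after rescaling by the median of ratios, so its size rests on the scaling. In stromal medium it was -0.14 (SE 0.11, 95% interval -0.37 to 0.09, limma adjusted p = 0.271) and turned to 0.21 under that rescaling.

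Both B55 subunits of PP2A were higher in adipocyte medium. Ppp2r2a (ENSMUSG00000022052) had 16175, 14515 and 16170 normalized counts in adipocyte medium, 11205, 10428 and 10845 in stromal medium, and 9178, 8393 and 8922 in unconditioned medium. The media did not overlap, the log2 fold change in adipocyte medium was 0.82 (SE 0.08), and in stromal medium the gene rose by 0.29 (SE 0.08, limma adjusted p = 0.00551); the call ended without mouse 3 in all media (adjusted p = 0.0552). Ppp2r2d (ENSMUSG00000041769) had 6623, 5761 and 6593 normalized counts in adipocyte medium, 3708, 3771 and 3463 in stromal medium, and 3368, 3339 and 3383 in unconditioned medium. The adipocyte samples were high, with a log2 fold change of 0.91 (SE 0.08), and the stromal samples stood narrowly above the unconditioned ones, by 0.12 (SE 0.08, 95% interval -0.05 to 0.28, limma adjusted p = 0.218), and by 0.47 (adjusted p = 7.19e-04) after rescaling by the median of ratios. Mapk1ip1, on the other strand, overlaps 3.30% of the exon bases of Ppp2r2d.

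The ratio of Ppp2r2d to Ppp2r2a had the narrowest range of the 3. It was 0.409, 0.397 and 0.408 in the adipocyte libraries, 0.331, 0.362 and 0.319 in the stromal libraries and 0.367, 0.398 and 0.379 in the unconditioned libraries. On the log2 scale the adipocyte mean was 0.09 above the unconditioned mean, with overlap, and the stromal mean was 0.18 below it, without overlap (exact two-sided permutation test, p = 0.1, the smallest possible). The 3 permutation tests on ratios were 1 family, and adjustment over them cannot bring any below the smallest possible value.

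Ppp4r2 (ENSMUSG00000052144), a regulatory subunit of PP4, a phosphatase known for its part in DNA repair, had 6715, 5748 and 6201 normalized counts in adipocyte medium, 4342, 4669 and 4266 in stromal medium, and 3094, 3258 and 3540 in unconditioned medium. The media did not overlap. The log2 fold change was 0.92 (SE 0.08) in adipocyte medium, and in stromal medium the gene rose by 0.43 (SE 0.08, limma adjusted p = 8.76e-04).

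In stromal medium, then, 5 of the 10 genes rose, Ppp1r12c, Ppp1r15b, Ppp1r16b, Ppp2r2a and Ppp4r2, and 0 fell, where 21.1% of the 2868 tested genes were called higher and 36.6% lower. At an unadjusted p under 0.05 the counts were also 5 and 0, and the share of tested genes at that limit was not counted. With edgeR and TMM 7 were called higher and 0 lower, against 28.1% and 28.8% of tested genes. With DESeq2 8 were called higher and 0 lower, against 40.9% and 20.4% of tested genes. The rises were of 0.28 to 0.46 on the log2 scale, or 1.21-fold to 1.37-fold, all short of 1.5-fold. The other 5 genes, which did not pass, ranged from -0.63 to 0.24. The median of the 10 was 0.26, beside -0.17 over all tested genes. All 3 stromal samples were above all 3 unconditioned samples for 7 genes, the 5 that passed and Ppp1r15a and Ppp2r2d, and below them for 0, where 25.1% of tested genes were above and 44.2% below. The tested genes are an unlike background for these counts and for the median. In adipocyte medium 63.4% of them were called lower, where 8 of these 10 genes were higher. Both comparisons also share the unconditioned samples. No trait of the family in stromal medium is read from these counts. The count moves with the scaling. Rescaled by the median of ratios, which takes most listed genes as unchanged, 8 subunit genes were called higher and 0 lower. The shares of tested genes then became 39.4% higher and 19.6% lower.

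**Figure D3:**
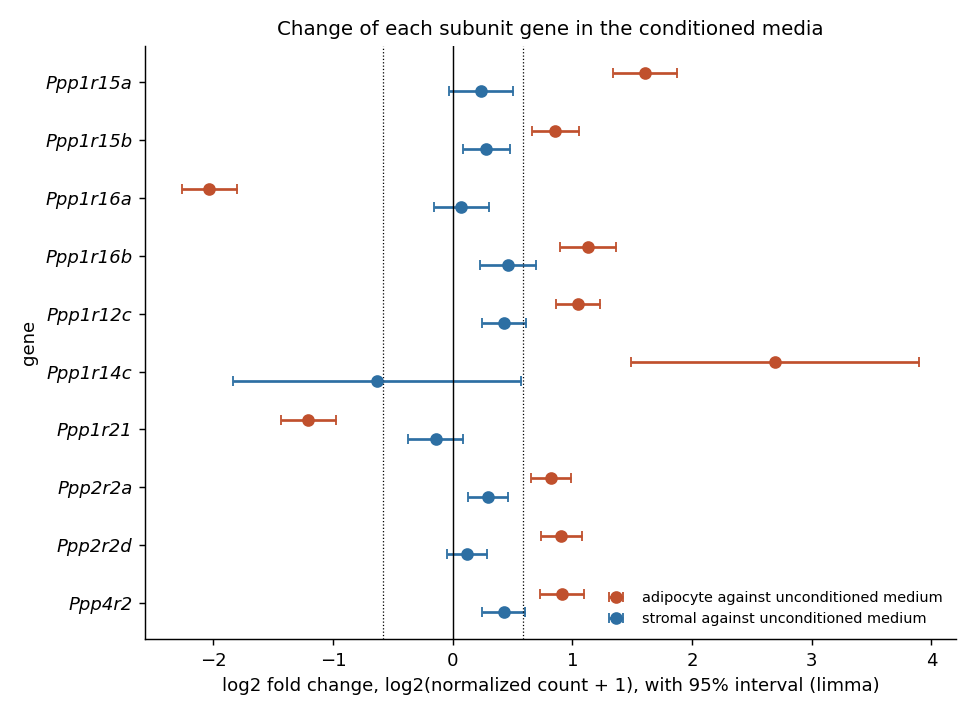
Log2 fold change (horizontal axis) of each subunit gene (rows) against unconditioned medium, in adipocyte medium (upper point of each row) and stromal medium (lower point), with 95% intervals from the limma fit of 9 samples; dotted lines mark 1.5-fold. The adipocyte intervals lie beyond the dotted lines for all 10 genes, and no stromal point reaches them except that of Ppp1r14c, at -0.63 with an interval that spans 0.

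Set against stromal medium, adipocyte medium had the same 8 genes higher and the same 2 lower, with no overlap between samples. Of all tested genes 33.8% were called higher and 57.2% lower here, and 33.4% and 56.2% had no overlap upward and downward. The differences were 1.37 (SE 0.12) for Ppp1r15a, -2.11 (SE 0.10) for Ppp1r16a, -1.06 (SE 0.11) for Ppp1r21 and 3.32 (SE 0.55) for Ppp1r14c on the log2 scale, and 0.49 to 0.79 for the other 6. The adipocyte samples that selected the genes enter this comparison too, so these values are given with no test. In 8 of the 10 genes the stromal mean lay between the other means, as it did in 69.7% of tested genes; the exceptions were Ppp1r16a, highest in stromal medium, and Ppp1r14c, lowest there.

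**Figure D4:**
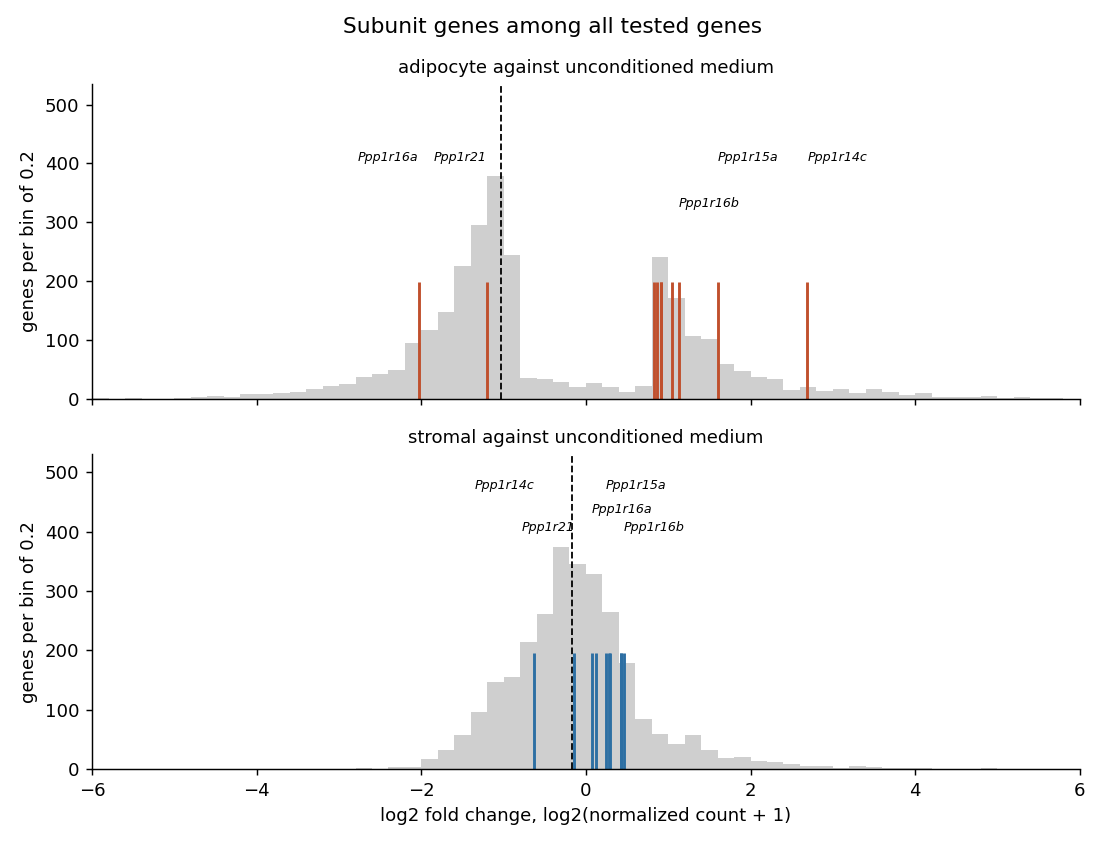
Number of genes (vertical axis) per bin of log2 fold change (horizontal axis) over the 2868 tested genes, in adipocyte (top) and stromal medium (bottom) against unconditioned medium, with the 10 subunit genes as coloured lines and the median of all genes dashed. Few genes lie near 0 in the top panel; the subunit genes fall in both peaks there, with Ppp1r14c in the upper tail, and between -0.63 and 0.46 in the bottom panel.

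Among themselves the 3 mice agreed on direction in adipocyte medium for all 10 genes. The adipocyte value of mouse 2 was the lowest of the 3 for 7 of the 8 genes that were higher, all but Ppp1r12c, where mouse 1 was lowest. Of the 2 genes that were lower, Ppp1r16a had its highest adipocyte value in mouse 2 and Ppp1r21 in mouse 1. Over all tested genes, mouse 2 was nearest to the unconditioned samples in 65.1% of the 964 genes whose adipocyte samples were all above them, and in 48.9% of the 1819 whose adipocyte samples were all below them. The coefficient of variation in adipocyte medium was 2.18% for Ppp1r12c, 19.4% for Ppp1r15a and 24.8% for Ppp1r14c, with the other 7 between 5.82% and 14.3%.

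Per kilobase of exon in GENCODE M21, the level was highest for Ppp1r15a in each medium, at 12312 ± 2394 normalized counts per kilobase in adipocyte medium, 4704 ± 105 in stromal medium and 3990 ± 184 in unconditioned medium (SD, n = 3). In unconditioned medium Ppp1r12c followed at 1739 ± 9.08, then Ppp2r2a at 1641 ± 74.4, Ppp1r16b at 1164 ± 155, Ppp1r15b at 959 ± 83.5, Ppp1r16a at 837 ± 19.2 and Ppp2r2d at 570 ± 3.80. Ppp1r21 and Ppp4r2 both stood at 482, with SDs of 29.2 and 33.0, and could not be ordered, and Ppp1r14c was last at 3.53 ± 1.91. In adipocyte medium Ppp1r21 and Ppp1r16a, at 210 ± 23.9 and 205 ± 29.3, were next to last and did not differ beyond their spread.

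Genes around the phosphatases were counted on lists for 6 neighbouring functions, over those in the table, all of which are in the authors' adipocyte table as well, so their adipocyte values are a description too. Of 22 genes of the eIF2-alpha kinase and ATF4 branch 6 were tested. All 6 were higher in adipocyte medium (median 1.38, beside -1.03 over all tested genes), against 33.8% of tested genes. The other genes of the list are not analysed here, so nothing is read about the branch as a whole. All 6 also rose in stromal medium (median 0.62, beside -0.17 over all tested genes), where 21.1% of tested genes were called higher. The stromal comparison selected 0 of the 6, but it shares the unconditioned samples with the adipocyte comparison, which selected all 6. In adipocyte medium 63.4% of tested genes were called lower, so they are an unlike background for 6 genes that were all higher there. No trait of the branch in stromal medium is read from this count. Atf4, the transcription factor gene of that branch, was at 1.99 (SE 0.10) in adipocyte medium and rose by 0.73 (SE 0.10, limma adjusted p = 4.51e-05) in stromal medium. The stress factor genes Atf3, Cebpb and Gadd45a were at 2.34, 1.54 and 1.22 in adipocyte medium and rose by 0.86, 0.93 and 0.37 in stromal medium. After rescaling by the median of ratios all 6 were called higher in stromal medium, as were 39.4% of tested genes.

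Of 29 calcineurin and NFAT genes 5 were tested. In adipocyte medium 3 were higher and 2 lower (median 0.87), against 33.8% and 63.4% of tested genes. In stromal medium 3 were called higher and 0 lower (median 0.28), where 21.1% of tested genes were called higher and 36.6% lower; the list is too short to set its share against these. The NFAT family gene Nfat5 was at 1.14, the kinase gene Dyrk1a at 0.87 and the CREB coactivator gene Crtc2 at 0.98 in adipocyte medium, against -1.22 for Calm3, a calmodulin gene. Of the PPM, PHLPP and other phosphatases, 6 of 37 were tested. In adipocyte medium 3 were higher and 3 lower (median -0.15), against 33.8% and 63.4% of tested genes. In stromal medium 2 were called higher and 2 lower (median -0.01), against the same 21.1% and 36.6% of tested genes. The nuclear proteasome phosphatase gene Ublcp1 was at -2.88 and -0.84, Tab1, for an activator of the kinase TAK1 with a phosphatase-like fold, at -1.32 and 0.08, the PP2C-family gene Ppm1m at -1.13 and -0.10 and the phosphatase gene Ctdspl2 at 0.83 and 0.27 in adipocyte and stromal medium. After rescaling, 4 were called higher and 2 lower in stromal medium, where the share of tested genes became 39.4% higher and 19.6% lower.

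Few genes of the other lists were in the table. Of the myosin phosphatase and RhoA list, 2 of 23 were tested. The small GTPase gene Rhob was at 1.47 (SE 0.16) in adipocyte medium and at -1.43 (SE 0.16) in stromal medium. Of these 2 genes 1 is also in the authors' table for stromal medium, which holds changes beyond 1.5-fold. Rhob, the one with such a change, was thus selected there too, and its stromal value is a description with no test. Its relative Rhoc was at 1.56 in adipocyte medium and -0.01 in stromal medium (limma adjusted p = 0.959). Of 40 PP1 partners 3 were tested. Csrnp1, a nuclear factor gene, was at 2.24 and Akap1, for a mitochondrial anchor protein, at 1.13 in adipocyte medium. Both rose in stromal medium, by 0.67 and 0.81, where 21.1% of tested genes were called higher and 36.6% lower. The proliferation marker Mki67 was at -1.10 in adipocyte medium and -0.09 in stromal medium. These 3 genes are too few to set against those shares, and the adipocyte comparison that selected them shares the unconditioned samples. Of 30 PP2A regulators 1 was tested, Cip2a, for an inhibitor of PP2A, at -1.30 in adipocyte medium and -0.11 in stromal medium (adjusted p = 0.524).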

How the data were processed

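RNA of 9 samples, 3 mice in 3 media, was sequenced from SMART-seq v4 cDNA in Nextera XT libraries, per the labels' protocols; these do not keep strand. FastQC, Trimmomatic, featureCounts and DESeq2 are named without versions in the submitters' processing notes, with the builds GRCm39, GRCh38 and hg38; which aligner, annotation and counting settings were used the sources used here do not give. The deposited sample table holds a normalized signal per gene, read counts that the authors divided by 1 size factor per sample: divided by 1 step per sample, 100% of values came out as whole reads to within 0.001. The floor in reads covers counting error only. The intervals of log2 fold changes come from the limma fit and rest on the spread between samples. The authors' deposited tables give, per the file headers, a mean signal, a p-value and its adjusted form, a log2 fold change and its standard error, and the score of a Wald test.

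The log2(value + 1) of each gene entered limma-trend (limma 3.58.1 in R 4.3.3), in 1 fit of all samples with the medium as factor, over the 2868 genes with a mean of at least 1. P-values were two-sided and Benjamini-Hochberg adjusted over those genes, with a threshold of 0.05. The fits were tested on simulated data in which few genes changed, as many up as down. Most listed genes changed in the real data, so that check does not cover the scaling. Replicates are separate mice, and no 2 libraries agreed within sampling noise (chi-square per degree of freedom 10.2 to 96.7). Same-numbered samples come from the same mouse, per the labels; the correlation of their deviations from the group means was -0.12 to 0.26. Samples were otherwise unpaired in the fit. Rescaling by the median of ratios over the listed genes moved log2 fold changes by 0.93 in adipocyte medium, 0.36 in stromal medium and 0.57 between them. Whole reads were also tested with edgeR 4.0.16 and DESeq2 1.42.0. The members, gene lists and tests were chosen with earlier results of these data known. Every member is named; from each list up to 4 tested genes with the smallest adjusted p in adipocyte medium are named.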

Additional observations from a re-analysis of the deposited data

How the results depend on the processing

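The adipocyte samples selected the subunit genes, so their values under other settings are a description and no sign of stability. Against unconditioned medium the median of 0.91 was 1.84 with the median of ratios, 1.36 with edgeR and TMM and 1.84 with DESeq2. Against stromal medium the median of 0.60 was 1.17, 0.90 and 1.16 under those 3 scalings. In stromal against unconditioned medium, which did not select the genes, the 5 genes called higher became 8 with the median of ratios, 8 with DESeq2 and 0 in the test against 1.5-fold, and 7 with edgeR and TMM. Of tested genes 21.1% were called higher in the main fit and 39.4% with the median of ratios. With DESeq2 the share was 40.9%, and with edgeR and TMM 28.1%. Shares were not counted for the 1.5-fold test or for the fits with samples left out. The stromal median of 0.26 became 0.62 with the median of ratios, 0.40 with edgeR and TMM and 0.61 with DESeq2. Ppp1r21 turned to 0.21 with the median of ratios, 0.00063 with edgeR and TMM and 0.21 with DESeq2. The cause was not tested beyond the shift that each scaling brings by construction. All 3 scalings take most genes as unchanged and were computed on listed genes, each selected as changed in a conditioned medium. Leaving out samples or mice in turn gave 3 to 6 genes higher and 0 lower, with a median of 0.23 to 0.30 (0.28 without mouse 1 and 0.24 without mouse 2), in stromal medium, the 3 without mouse 3; the medians were 0.87 to 0.97 for adipocyte against unconditioned and 0.56 to 0.65 for adipocyte against stromal medium. With the mouse as a replicate block the stromal counts were 5 and 0, and no stromal call of a subunit gene changed. edgeR on reads with the authors' size factors was added after seeing the data and changed no stromal call. Depth limits Ppp1r14c, with 2 to 14 reads per library outside adipocyte medium.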
